A study of Mus musculus with 2 samples.

Results

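A set of 10 genes of neural crest and facial patterning were described in 2 single-cell RNA libraries of mouse aortic smooth muscle cells in culture. The genes are Tfap2a, Tfap2b, Dlx5, Dlx6, Pax9, Lhx8, Lhx6, Mab21l1, Msx1 and Alx1, which make up 10 of the 31053 genes in the deposited matrices. They were chosen by their measured UMI counts, their levels, their joint occurrence and their levels by Myh11 and cycling class in these same libraries, so those values are given as a description and without a test. Both libraries held primary vascular smooth muscle cells (VSMCs) of wild type mice, dispersed by enzymes from the thoracic aorta and grown for 5 days in full medium with serum, and there was a single condition. The labels number them as biological replicates 1 and 2. They name neither the age, the strain nor the sex of the mice, and the study pooled the aortae of several mice in a cell preparation. The study gives a pure C57BL6/N background for all its mice other than the atherosclerotic ones, and used males and females.

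Kept barcodes had at least 300 genes, at least 3000 unique molecular identifiers (UMIs, each marking 1 captured transcript) and under 20% mitochondrial UMIs. These were 4866 cells in replicate 1, with a median of 22234.5 UMIs, and 6824 cells in replicate 2, with a median of 16310.0 UMIs. The matrices summed to 127949633 and 132561822 UMIs. The contractile gene Myh11 had at least 5 UMIs in 472 and 879 cells, and 0 or 1 UMI in 3951 and 5357 cells. Cycling cells, with at least 10 UMIs of cell cycle genes per 10000, numbered 1750 and 2154, and endothelial cells 106 and 146. The libraries also differed in sex-linked RNA. In replicate 1, Xist was found in 0.0822% of the cells and the Y-linked gene Ddx3y in 78.5%. In replicate 2, Xist was found in 95.8% of the cells and Ddx3y in 0 of 6824. A difference between the libraries therefore cannot be told apart from one between the sexes of the animals.

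The neural crest is a group of embryonic cells that leave the edge of the neural tube and give rise to most of the skeleton and connective tissue of the face. Crest cells that settle around the pharyngeal arch arteries also form smooth muscle of the ascending aorta and the aortic arch, whereas the smooth muscle of the descending thoracic aorta comes from somite mesoderm. Tfap2a and Tfap2b encode the transcription factors AP-2α and AP-2β, which act early in the crest, and Tfap2b is also needed for closure of the ductus arteriosus. Dlx5 and Dlx6 are paired homeobox genes that give arch mesenchyme its lower jaw identity downstream of endothelin 1. Pax9 and Msx1 are required for teeth and palate, Lhx6 and Lhx8 are LIM homeobox genes of the oral mesenchyme and of forebrain neurons, and Alx1 acts in the mesenchyme around the eyes and nose. Mab21l1 encodes a Mab-21 family protein of the developing eye and is not a classical DNA-binding factor.

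In the GENCODE M21 annotation of GRCm38, the 10 genes lay on 8 chromosomes. Dlx5 (chr6:6877805-6882085, minus strand) and Dlx6 (chr6:6863334-6868568, plus strand) were neighbours, 9236 bases apart. The antisense gene Dlx6os1 (chr6:6820189-6871592, minus strand) covered all 5235 bases of Dlx6. Whether the counting used the strand is not stated in the sources used here, so that UMIs of Dlx6 and Dlx6os1 are uncertain as to which gene they came from. The other members were Tfap2b (chr1:19208914-19238576, plus strand), Tfap2a (chr13:40715302-40738376, minus strand), Pax9 (chr12:56691767-56712822, plus strand), Lhx8 (chr3:154306294-154330659, minus strand), Mab21l1 (chr3:55782510-55785001, plus strand), Lhx6 (chr2:36081953-36105408, minus strand), Msx1 (chr5:37820485-37824583, minus strand) and Alx1 (chr10:102998707-103030215, minus strand). All 10 are protein-coding.

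RefSeq promoters, from 250 bases before to 50 bases after a transcript start on GRCm38.p6, were matched by symbol for 6 of the members, with 9 promoters in all. Those shown are of Tfap2b and Pax9, which were detected together in cells of replicate 2, and that of Tfap2a with the motif match. The core that most homeodomain proteins such as Dlx5, Msx1 and Lhx8 can bind, TAATTA, which reads the same on both strands, was found in 1 of the 9 promoters and in 5.29% of all 32851 promoters of this length. The AP-2 motif GCCNNNGGC, searched on both strands, was found in none of the 9 and in 16.6% of all promoters. Capitals mark the match, and the sequences are printed 5′ to 3′ on the strand of the gene.
Tfap2b, chr1:19211804-19212103, plus strand: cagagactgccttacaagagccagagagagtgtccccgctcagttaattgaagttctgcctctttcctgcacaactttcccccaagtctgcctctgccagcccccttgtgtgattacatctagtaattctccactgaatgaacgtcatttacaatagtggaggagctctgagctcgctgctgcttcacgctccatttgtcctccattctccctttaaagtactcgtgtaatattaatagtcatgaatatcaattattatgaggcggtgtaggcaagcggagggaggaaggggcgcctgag
Pax9, chr12:56695221-56695520, plus strand: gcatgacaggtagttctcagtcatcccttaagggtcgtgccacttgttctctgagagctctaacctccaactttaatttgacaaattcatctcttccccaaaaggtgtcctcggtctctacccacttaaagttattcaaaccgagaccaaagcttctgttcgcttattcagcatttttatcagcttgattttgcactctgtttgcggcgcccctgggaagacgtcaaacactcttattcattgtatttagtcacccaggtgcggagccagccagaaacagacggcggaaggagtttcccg
Tfap2a, chr13:40734871-40735170, minus strand: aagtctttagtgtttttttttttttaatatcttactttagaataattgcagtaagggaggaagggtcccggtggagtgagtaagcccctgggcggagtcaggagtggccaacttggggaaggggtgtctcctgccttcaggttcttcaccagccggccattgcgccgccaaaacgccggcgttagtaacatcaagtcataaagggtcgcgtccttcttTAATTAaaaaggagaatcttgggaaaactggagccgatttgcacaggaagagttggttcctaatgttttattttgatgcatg

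All 10 genes had at least 1 UMI in each library, but their levels were low and 6 of them differed between the libraries by over 4-fold. Levels are given as UMIs per 1000000 UMIs of all kept cells (CPM). Each captured transcript gives 1 tag in this 3′ assay whatever its length, so no division by length was made. Intervals cover counting error only. Tfap2b was at 0.0753 CPM in replicate 1 (9 UMIs) and at 5.68 CPM in replicate 2 (703 UMIs), a mean of 2.88 ± 3.96 CPM (SD, n = 2). Cells with a UMI of it made up 0.144% of replicate 1 (95% exact binomial interval 0.0579 to 0.296) and 4.50% of replicate 2 (4.02 to 5.02). Mab21l1 had 3 UMIs in replicate 1 and 292 in replicate 2, where it was at 2.36 CPM and in 3.71% of cells. Both genes were thus nearly absent from one library.

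Dlx5 was at 0.954 CPM in replicate 1 and 5.54 CPM in replicate 2, and in 2.01% and 6.05% of cells. Its neighbour Dlx6 was lower, at 0.176 and 2.13 CPM and in 0.390% and 2.62% of cells. Pax9 was at 0.795 and 3.68 CPM and in 1.73% and 4.12% of cells. Tfap2a was at 0.117 and 1.05 CPM and in 0.288% and 1.74% of cells. These 4 genes, like Tfap2b and Mab21l1, were higher in replicate 2, by 4.63-fold for Pax9 and 12.1-fold for Dlx6, although replicate 2 had fewer UMIs per cell. Lhx8 went the other way, at 2.90 CPM and in 4.85% of cells in replicate 1 against 1.39 CPM and 1.80% in replicate 2, a 2.09-fold difference. Msx1 was alike in both, at 3.78 and 3.56 CPM (3.67 ± 0.149, SD, n = 2) and in 7.69% and 6.05% of cells. With each cell thinned to 3000 UMIs, the expected shares were 0.0375% and 1.35% for Tfap2b, 0.289% and 1.44% for Dlx5, 0.238% and 1.01% for Pax9, 0.858% and 0.481% for Lhx8 and 1.20% and 1.13% for Msx1, so the order of the libraries was the same.

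Lhx6 (6 and 4 UMIs) and Alx1 (5 and 2 UMIs) were close to the floor of 3 UMIs in both libraries, and nothing more can be said of them at this depth. By mean level, the order was Msx1, Dlx5, Tfap2b, Pax9, Lhx8, Mab21l1, Dlx6, Tfap2a, Lhx6 and Alx1. With SDs between the libraries of 3.24 CPM for Dlx5, 2.04 for Pax9, 1.07 for Lhx8 and 1.38 for Dlx6, no neighbours from Msx1 to Tfap2a differed beyond their spread. Single cells reached 12 UMIs of Tfap2b and of Pax9, 13 of Dlx5 and 8 of Dlx6 in replicate 2, and at least 2 UMIs of Tfap2b were present in 163 of its 307 cells with any. In replicate 1, the highest counts in a cell were 8 for Msx1 and 6 for Lhx8.

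**Figure D1:**
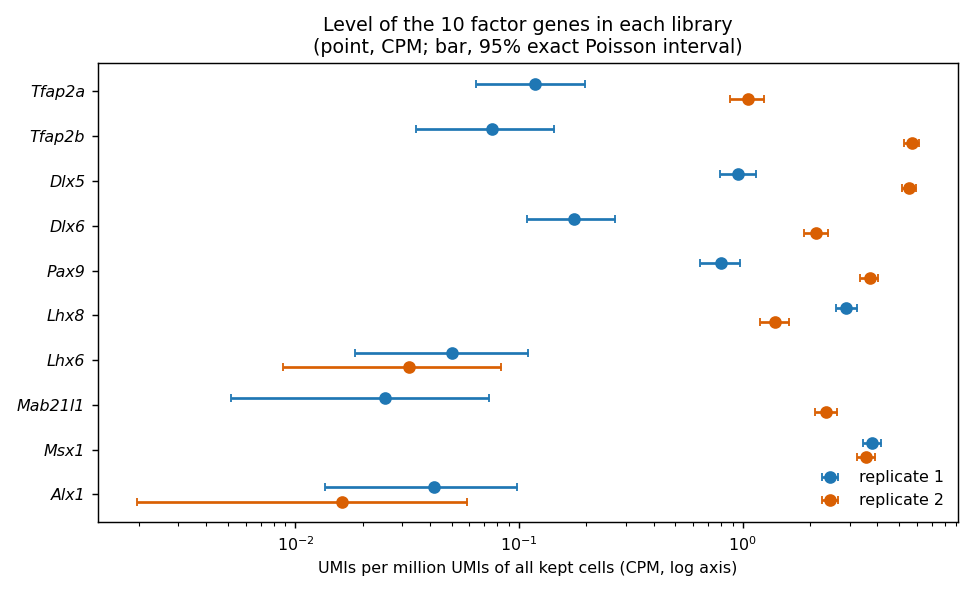
Level of each of the 10 genes (rows) in replicate 1 (blue) and replicate 2 (orange), in CPM over all kept cells on a log axis, with 95% exact Poisson intervals. Tfap2b lies at 0.0753 and 5.68 CPM and Mab21l1 at 0.0251 and 2.36 CPM, whereas the points of Msx1, at 3.78 and 3.56 CPM, lie side by side.

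Free RNA was read from barcodes with 1 to 100 UMIs. In replicate 2 it held Tfap2b at 4.11 CPM, Dlx5 at 4.56, Pax9 at 4.56, Mab21l1 at 2.51, Msx1 at 2.74, Dlx6 at 0.913 (4 UMIs), Tfap2a at 0.456 (2 UMIs) and Lhx8 at 2.51 CPM (11 UMIs). The 95% exact Poisson intervals of these 8 values held the levels of the cells. In replicate 1 it held Lhx8 at 5.19, Msx1 at 3.64, Pax9 at 1.30 and Dlx5 at 0.779 CPM and no UMI of Tfap2a, Tfap2b, Dlx6 or Mab21l1. The interval of Lhx8 there (3.17 to 8.02) lay above its level of 2.90 CPM in the cells. Those of Msx1, Pax9 and Dlx5 held the levels of the cells. Endothelial cells, a cell type outside the crest mesenchyme, gave a second view of this background, at median depths of 14629.0 and 10166.5 UMIs per cell. Tfap2b was in 0 of 106 endothelial cells of replicate 1, which on a floor of 3 cells allows a share of up to 2.83%. In replicate 2 it was in 1.37% of the endothelial cells, against 4.57% of the other cells. Mab21l1 and Lhx8 were also in 1.37% of the endothelial cells of replicate 2, against 3.76% and 1.81% of the others. Dlx5 was in 2.83% of the endothelial cells of replicate 1 (95% exact binomial interval 0.587 to 8.05), against 2.00% of the others, and in 3.42% of those of replicate 2 (1.12 to 7.81). Dlx6 was in 1 endothelial cell of replicate 1 (0.0239% to 5.14%), against 0.378% of the others, and in 4 of replicate 2 (0.751% to 6.87%), against 2.62%. With so few endothelial cells, a difference from the share in the other cells was not detectable for Tfap2b, Mab21l1, Dlx5 or Dlx6 in either library or for Lhx8 in replicate 2. These shares take no account of depth. By CPM, Tfap2b in the endothelial cells of replicate 2 was at 1.11 (2 UMIs, 95% exact Poisson interval 0.135 to 4.02), against 5.75 CPM in the others. That interval takes no account of UMIs lying together in cells. In replicate 2, 163 of the 307 cells with Tfap2b had at least 2 UMIs of it, so no difference is read. In the same endothelial cells, the intervals of Mab21l1, Dlx5, Dlx6 and Lhx8 held the levels of the others. In replicate 1, Lhx8 was in none of the 106 endothelial cells (up to 2.83% on the same floor) and in 4.85% of all cells.

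Msx1 was higher in the endothelial cells than in the rest in both libraries. It was at 16.3 CPM in the endothelial cells of replicate 1 and 12.2 CPM in those of replicate 2, which was 4.58-fold and 3.56-fold the level of the other cells. It was found in 26.4% of the endothelial cells of replicate 1 (95% exact binomial interval 18.3 to 35.9) and in 19 of the 146 of replicate 2 (8.02% to 19.6%). Pax9 was at 13.9 CPM in the endothelial cells of replicate 2 (25 UMIs, 95% exact Poisson interval 9.01 to 20.5), which was 3.94-fold the level of the others. In replicate 1 it was at 1.97 CPM (4 UMIs, 0.538 to 5.05), an interval that held the level of the others.

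The members were next counted cell by cell. In replicate 1, 59 cells had UMIs of at least 2 members, against 54.5 expected if the genes were independent among cells of like depth (10 depth bins per library). At least 3 members were found in 2 cells, against 1.91 expected. In replicate 2, at least 2 members were found in 391 cells, against 265 expected, and at least 3 in 155 cells, against 26.2 expected. Here 236 cells had exactly 2 members, 89 exactly 3, 46 exactly 4, 16 had 5 and 4 had 6. Summed over the 45 pairs, cells with both genes came to 66 against 58.4 expected in replicate 1, a ratio of 1.13, and to 999 against 323 in replicate 2, a ratio of 3.09.

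Most of this excess in replicate 2 came from 4 genes. Dlx5 and Dlx6 were found together in 111 cells against 12.9 expected, a ratio of 8.62, and 62.0% of the cells with Dlx6 also had Dlx5. Dlx6 and Pax9 were together in 70 cells (ratio 7.88), Tfap2b and Dlx6 in 72 (7.36), Tfap2b and Pax9 in 97 (6.57), Dlx5 and Pax9 in 120 (6.05) and Tfap2b and Dlx5 in 129 (6.00). At least 2 of these 4 genes were present in 283 cells of replicate 2, 4.15% of its cells, and in 10 cells of replicate 1, 0.206%. All 4 were present in 28 cells and in none. Mab21l1 gave lower ratios with them, from 2.21 with Tfap2b to 2.76 with Dlx6, and so did Tfap2a, from 1.80 with Dlx6 to 2.62 with Tfap2b. Msx1 gave ratios with the 4 genes from 1.36 with Tfap2b to 1.89 with Pax9.

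Lhx8 showed no such excess with the 4 genes in replicate 2. It shared 1 cell with Tfap2b against 5.48 expected (ratio 0.182), 1 with Dlx6 against 3.22 (0.311), 5 with Dlx5 against 7.57 (0.660) and 5 with Pax9 against 4.94 (1.01). In replicate 1, where Lhx8 was in 236 cells, it shared 5 with Dlx5 against 5.41 expected and 18 with Msx1 against 20.3. Dlx5 and Dlx6 also went together in replicate 1, in 6 cells against 0.428 expected, while Dlx5 and Pax9 shared 4 cells against 2.00 expected. The counts behind the ratios of replicate 1 are small.

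**Figure D2:**
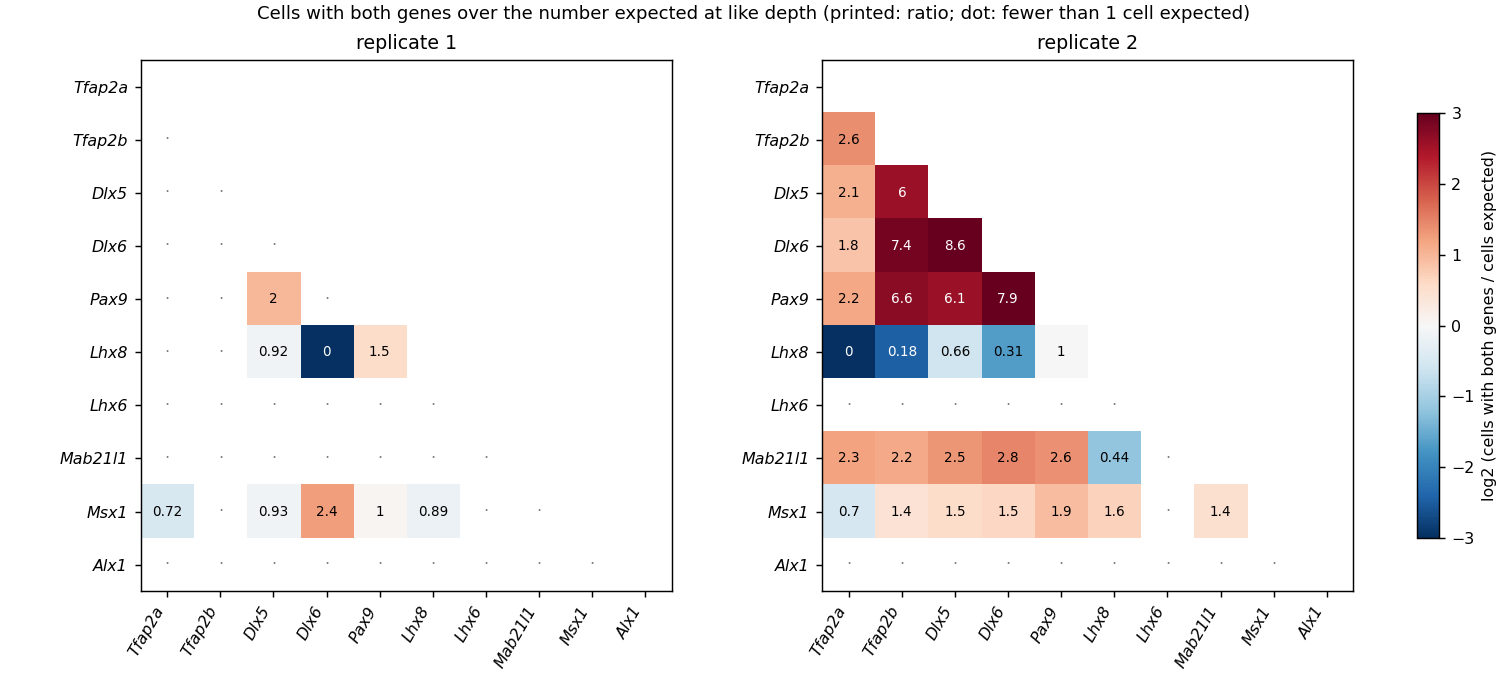
Cells with UMIs of both genes over the number expected at like depth, for each pair of members in replicate 1 (left) and replicate 2 (right). Colours give the log2 ratio, ending at -3 and 3 on the scale, printed numbers the ratio, and dots mark pairs with fewer than 1 cell expected. The 6 pairs among Tfap2b, Dlx5, Dlx6 and Pax9 lie between 6.00 and 8.62 in replicate 2, and Lhx8 lies at 0.182 with Tfap2b.

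The members were then compared between cells with at least 5 Myh11 UMIs and cells with 0 or 1. The latter are called cells without Myh11 below, although some of them had 1 UMI. The counts do not show whether they ever held more. Myh11 encodes smooth muscle myosin heavy chain and marks the contractile state. In all cells with at least 5 Myh11 UMIs, Tfap2b was at 0.299 CPM in replicate 1 and 3.71 CPM in replicate 2. In those with 0 or 1 UMI it was at 0.0105 and 6.46 CPM. The values of replicate 1 rest on 4 and 1 UMIs of Tfap2b, so no direction is read there. Dlx5 was at 0.150 and 3.45 CPM against 0.994 and 6.07 CPM, lower in the Myh11 cells of both libraries, with 2 UMIs in those of replicate 1. Pax9 was at 0.748 and 1.34 CPM against 0.795 and 4.17 CPM. Lhx8 was at 2.77 CPM against 2.96 CPM in replicate 1, but had a single UMI in the Myh11 cells of replicate 2 (0.0515 CPM) against 1.74 CPM. Msx1 was at 3.52 and 2.32 CPM against 3.46 and 3.75 CPM. Cycling cells had Tfap2b at 0.0415 and 6.70 CPM, Dlx5 at 1.04 and 5.32 CPM, Pax9 at 0.893 and 4.02 CPM, Lhx8 at 3.36 and 1.60 CPM and Msx1 at 3.43 and 3.38 CPM.

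**Figure D3:**
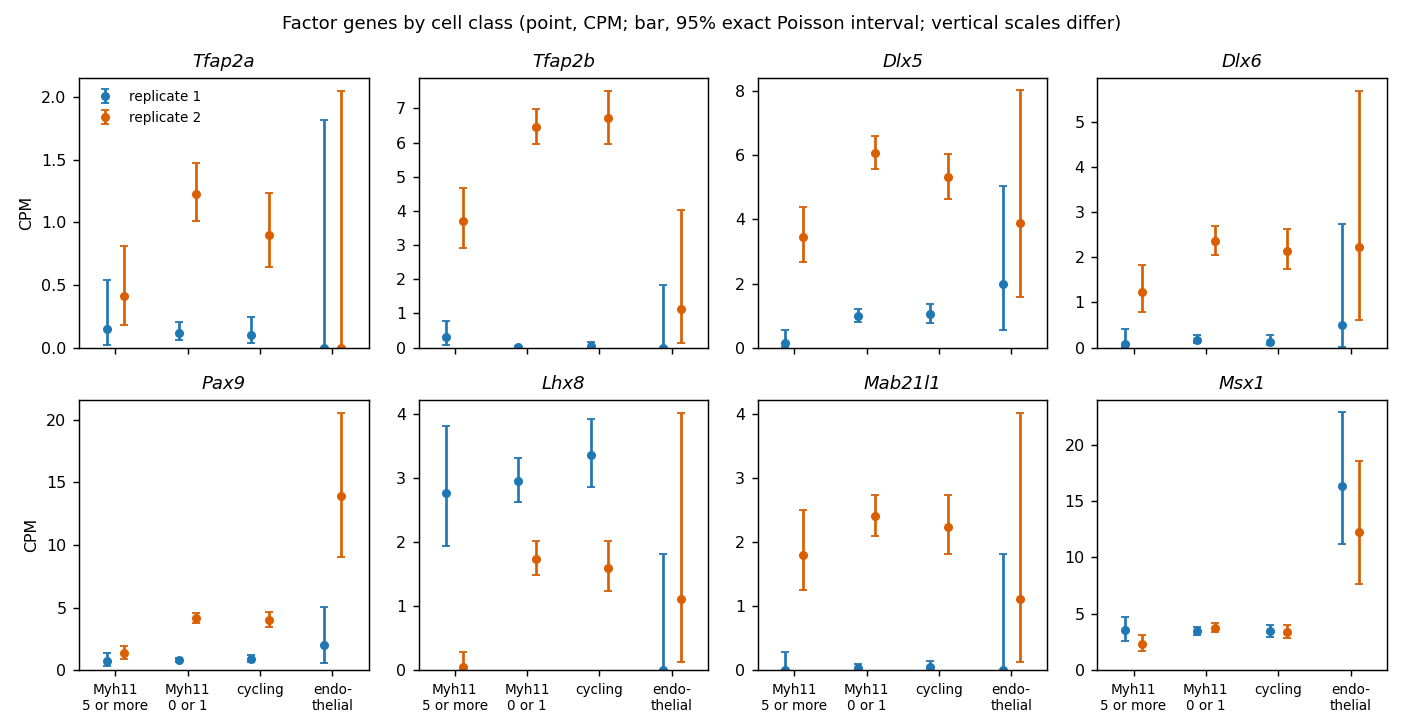
CPM of 8 members (panels, each with its own vertical scale) in cells with 5 or more Myh11 UMIs, with 0 or 1, in cycling cells and in endothelial cells, for replicate 1 (blue) and replicate 2 (orange), with 95% exact Poisson intervals. Msx1 stands at 16.3 and 12.2 CPM in endothelial cells, and Lhx8 at 0.0515 CPM in the Myh11 cells of replicate 2. Lhx6 and Alx1, with 6 UMIs or fewer per library, are not drawn.

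For a fit over all genes, UMIs were summed per library over non-cycling cells with at least 5 Myh11 UMIs, non-cycling cells with 0 or 1, and cycling cells with 0 or 1, and the libraries were the replicates. With edgeR's quasi-likelihood test, 201 of 13915 genes passed an adjusted p of 0.05 between the Myh11 classes, 1.44% of them, 159 higher (1.14%) and 42 lower (0.302%) in the Myh11 cells. The members' levels in these classes entered their choice, so their own differences are given as a description and nothing is read from their calls. None of the 8 members fitted was among the 201 genes or the 2531 with an unadjusted p under 0.05, and Lhx6 and Alx1 were too low to be fitted. Their log2 differences ran from -1.77 (Pax9) to 0.06 (Mab21l1) with a median of -0.53, against -0.02 for all genes. The standard errors ran from 0.28 for Msx1 to 2.55 for Tfap2b, and most members differed between the libraries as given above.

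When the library was entered as a block, which removes that difference, 3227 genes passed (23.2%), 12.2% higher and 11% lower. Pax9 was 1 of them, from which nothing is read, since its levels in these classes entered its choice. It was at 0.129 CPM (1 UMI) in the non-cycling Myh11 cells of replicate 1 and at 1.03 CPM (11 UMIs) in those of replicate 2, against 0.759 and 3.78 CPM in the non-cycling cells without Myh11. The Myh11 cells were the lower in both libraries, with a log2 difference of -1.88 ± 0.32 (SE) with the block and -1.77 ± 1.37 without it, and the value of replicate 1 rests on a single UMI in the Myh11 cells. When cycling cells were counted too, the Pax9 levels of replicate 1 were 0.748 and 0.795 CPM, nearly alike. The other 7 members had log2 differences from -1.39 (Tfap2a) to -0.01 (Mab21l1) with the block.

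Between cycling and non-cycling cells without Myh11, 629 of 13915 genes passed (4.52%), 612 higher (4.4%) and 17 lower (0.122%) in the cycling cells. None of the 8 members was among them or among the 2099 genes with an unadjusted p under 0.05, from which again nothing is read. Their log2 differences ran from -0.38 (Tfap2a) to 0.45 (Tfap2b). With the block 2822 genes passed (20.3%), and the largest difference of a member was 0.48 ± 0.45 (SE) for Tfap2b. Tfap2b was at 0.0 and 5.74 CPM in the non-cycling cells and at 0.0257 and 7.92 CPM in the cycling ones. Msx1 had the smallest error, with a difference of -0.02 ± 0.18 (SE) with the block.

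Other genes of the same programmes were taken from lists chosen with earlier results of these data known, so their calls describe these libraries only. Of 9 other crest specifiers tested, none passed between the Myh11 classes without the block. With it 4 passed, all lower in the Myh11 cells as 11% of all genes were, Sox9 by a log2 difference of -1.15, Snai2 by -0.75, Zeb2 by -0.56 and Sox5 by -0.52. Of 38 other facial and arch factors none passed without the block and 12 with it, where 23.2% of all genes did, 2 of them higher and 10 lower. Emx2 (-2.41), Foxf2 (-1.89), Twist2 (-1.34) and Prrx2 (-1.28) were the largest. In the non-cycling Myh11 cells of replicates 1 and 2, Emx2 was at 0.516 and 0 CPM and Foxf2 at 0.646 and 0.373 CPM. The differences of Emx2 and Foxf2 thus rest on few UMIs. Among the signals that act on facial factors, Wnt5a passed in both fits. It was at 11.5 and 7.92 CPM in the Myh11 cells of the 2 libraries and at 32.0 and 43.6 CPM in the cells without, a log2 difference of -1.88 ± 0.24 (SE, adjusted p = 0.039 by edgeR). With the block 12 of the 24 signals tested passed, 6 in each direction, led by Aldh1a2 (-2.66), which makes retinoic acid, and Tgfb2 (2.02). The medians of these lists were -0.51, -0.65 and -0.04 without the block, against -0.02 for all genes.

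The cells with several members were described further in replicate 2, where 154 non-endothelial cells had UMIs of at least 3 of the 10 genes. They are called factor-positive here, and each was set beside a cell of the same library with none of the 10 and the nearest UMI count (median 25015.5 UMIs in both). Dlx5 was in 83.8% of the factor-positive cells, Pax9 in 73.4%, Tfap2b in 71.4%, Dlx6 in 62.3%, Mab21l1 in 29.2%, Msx1 in 24.7%, Tfap2a in 12.3% and Lhx8 in 1.30%. They held 60.6% of the Dlx6 UMIs of the library, 48.5% of those of Pax9, 43.1% of those of Dlx5 and 41.3% of those of Tfap2b, but 10.2% of those of Msx1. Of the 154 cells, 13 had at least 5 Myh11 UMIs, against 36 of the matched cells, and 53 were cycling, against 58. Replicate 1 had 2 such cells. None of the 9 cell barcodes that the libraries share was among the 154.

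With 2 cells in replicate 1, the edgeR test over both libraries had little to rest on. None of 9490 genes passed (0.0%), 118 had an unadjusted p under 0.05, and DESeq2 called none, with 29 at an unadjusted p under 0.05. The differences below are therefore a description of replicate 2, with no replicate, no test and no p. Genes are called higher or lower from a 2-fold difference with at least 20 UMIs over both sums. By this rule 2.45% of the 10652 other genes were higher in the factor-positive cells and 3.86% lower.

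The difference that stood out was among the Hox genes, which mark position along the body axis, the low-numbered paralog groups reaching furthest towards the head. They were split into groups 1 to 4 and 5 to 13 after their values had been seen. Groups 5 to 13 summed to 24.3 CPM in the factor-positive cells (96 UMIs, 95% exact Poisson interval 19.7 to 29.7) and 154 CPM in the matched cells (609 UMIs, 142 to 167), a ratio of 0.158 (95% interval 0.126 to 0.196). Over the 384 cells with at least 2 members the ratio was 0.309 (0.275 to 0.347). Groups 1 to 4 summed to 92.0 and 111 CPM, a ratio of 0.832 (0.722 to 0.959). All these intervals cover counting error only. Of the 39 Hox genes, 17 had at least 20 UMIs over both sums. All 10 of these from groups 5 to 9 were lower, and none of the 7 from groups 1 to 4 reached a 2-fold difference. Most of the 10 reached 20 UMIs only through the matched cells, so they had to come out lower, and this count supports nothing by itself.

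Hoxa7 was at 1.52 CPM in the factor-positive and 34.2 CPM in the matched cells, 22.5-fold lower. Hoxb7 had 1 UMI against 63, Hoxb8 1 against 40 and Hoxc8 2 against 40. Hoxc9 had none against 22, at least 7.34-fold lower on a floor of 3 UMIs per sum. Hoxa5, at 14.2 and 31.9 CPM, was 2.25-fold lower. By contrast Hoxa3 was at 20.3 and 20.8 CPM, Hoxb3 at 14.9 and 12.7, Hoxa4 at 11.2 and 9.63, and Hoxb2 at 25.6 and 33.0 CPM. Hoxb4, also of group 4, was at 10.9 and 21.3 CPM.

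**Figure D4:**
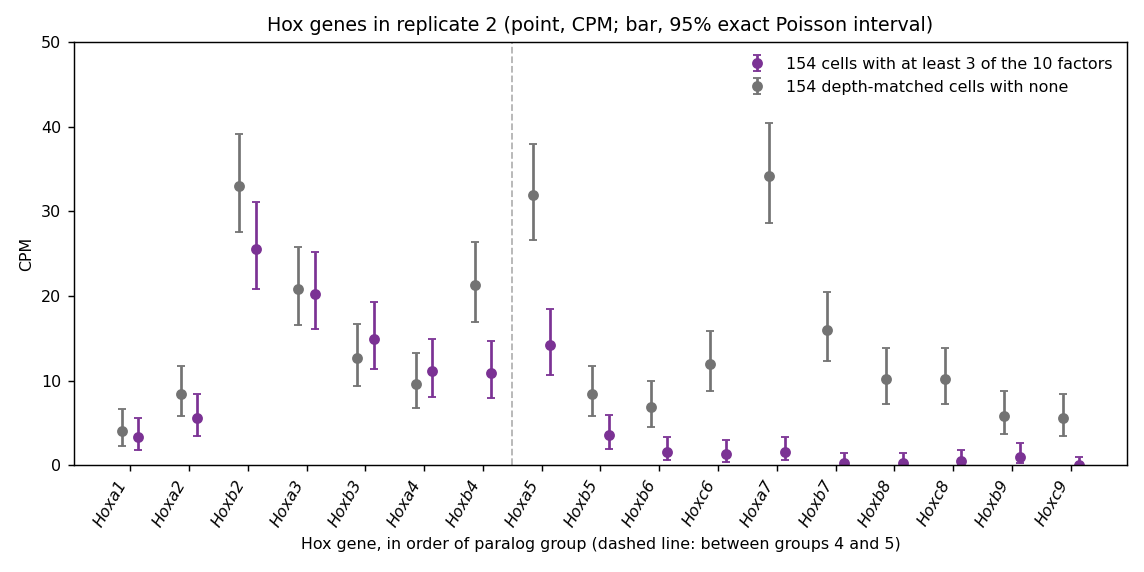
CPM of the 17 Hox genes with at least 20 UMIs over both sums (in order of paralog group) in the 154 factor-positive cells (purple) and the 154 matched cells (grey) of replicate 2, with 95% exact Poisson intervals. Left of the dashed line, in groups 1 to 4, the intervals of a gene overlap except for Hoxb4 (10.9 and 21.3 CPM), and right of it the purple points lie lower, as for Hoxa7 at 1.52 and 34.2 CPM.

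The same sums were taken for each member alone, in non-endothelial cells with a UMI of it and in depth-matched cells without one. In replicate 2, groups 5 to 13 gave a ratio of 0.228 for Mab21l1 (27.1 and 119 CPM), 0.268 for Dlx6, 0.384 for Tfap2b, 0.384 for Dlx5, 0.558 for Tfap2a, 0.660 for Pax9 and 0.753 for Msx1. The upper ends of these 7 intervals ran from 0.269 to 0.826. Such intervals cover the counting error of pooled UMIs only, not the spread between cells or cultures, and the 7 sets of cells overlap. Cells with Lhx8 went the opposite way, at 309 CPM against 97.6 CPM, a ratio of 3.16 (2.72 to 3.70). Groups 1 to 4 varied less, from 0.761 for Mab21l1 to 1.49 for Lhx8.

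Replicate 1 gave other values. There the ratio of groups 5 to 13 was 0.968 for Dlx5 (0.878 to 1.07), 0.951 for Msx1 (0.904 to 1.00), 1.24 for Pax9 (1.13 to 1.37) and 1.46 for Lhx8 (1.38 to 1.54). Lhx8 gave the highest of these ratios in both libraries. Over all non-endothelial cells, groups 5 to 13 were at 298 CPM in replicate 1 and 129 CPM in replicate 2, and groups 1 to 4 at 110 and 106 CPM. Replicate 2, with more of Tfap2b, Dlx5, Dlx6, Pax9 and Mab21l1, had less RNA of Hox groups 5 to 13 over all its non-endothelial cells. The factor-positive cells were 2.31% of the non-endothelial cells of replicate 2. Their matched cells, which had none of the members, held groups 5 to 13 at 154 CPM. That is also below the 298 CPM of replicate 1, so the lower sum was seen in cells without a detected member too. Whether the differences between the libraries in the members and in groups 5 to 13 are linked was not tested.

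**Figure D5:**
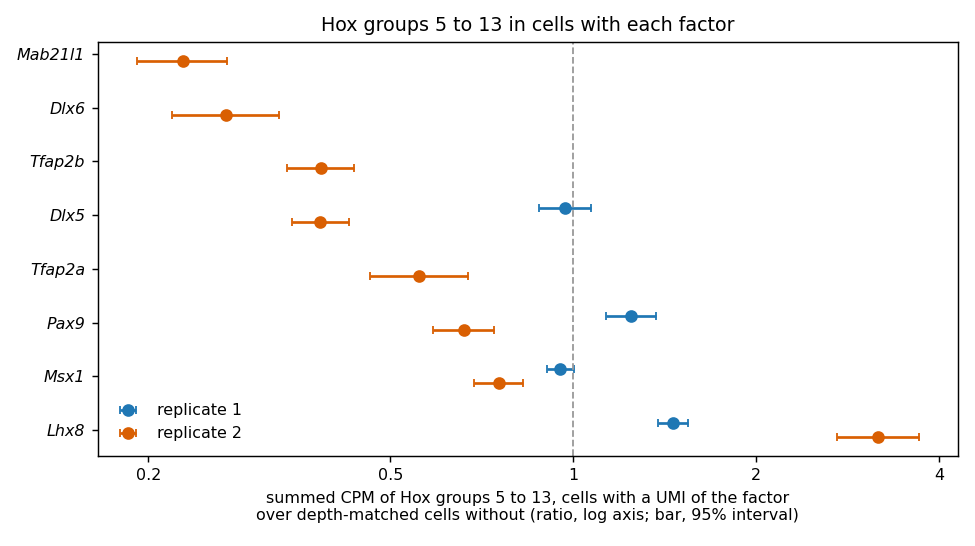
Summed CPM of Hox groups 5 to 13 in cells with a UMI of each member over depth-matched cells without one, as a ratio on a log axis, for replicate 1 (blue) and replicate 2 (orange). Bars are 95% intervals of counting error. In replicate 2, 7 members lie between 0.228 and 0.753, left of the dashed line at 1, and Lhx8 lies at 3.16. Members with few cells in replicate 1 are drawn for replicate 2 only.

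Other patterning genes were higher in the factor-positive cells of replicate 2. Of 51 listed facial and arch factors, 27 reached 20 UMIs, 12 of them were higher and 5 lower, although a gene that reaches 20 UMIs only through the group where it is high has to differ. Dlx1 had 27 UMIs against 0 (at least 9-fold higher), Barx1, a factor of the molar and stomach mesenchyme, 33 against 0 (at least 11.0-fold) and Foxf1 53 against 1. Dlx2 was at 10.4 and 1.01 CPM, Mab21l2, the close relative of Mab21l1, at 12.9 and 1.27 CPM, Osr1 at 311 and 106 CPM, and Prrx2 at 314 and 123 CPM. Lower were Hand2 (4.05 and 25.9 CPM), Meox2 (2.28 and 15.2), Foxd1, Twist2 and Nr2f2. Hand2, which acts in the lower jaw downstream of endothelin 1 as Dlx5 and Dlx6 do, was 6.38-fold lower.

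Of the 23 other crest specifiers, Msx2, a BMP target and paralog of Msx1, had 53 UMIs against 2, Sox5 was at 2.03 and 12.2 CPM, and 7 others with enough UMIs were within 2-fold, among them Sox9 at 140 and 76.0 CPM and Twist1 at 76.5 and 47.7 CPM. The other 14 crest specifiers had no UMI in either sum, and these include Sox10, Foxd3 and Pax3. Of the signals, Edn1, which encodes endothelin 1, was at 139 and 81.9 CPM and its receptor gene Ednra at 6.33 and 4.56 CPM. The retinoic acid genes Aldh1a2 (64.6 and 30.2 CPM) and Cyp26b1 (271 and 112 CPM), which make and break down the acid, were higher, and Mef2c (55.2 and 126 CPM) was lower. Fgf10 had no UMI against 26.

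Markers of the other cell types that could hold such genes were low in both sums. For the endothelial markers this was fixed in advance. Cells with at least 5 UMIs of Pecam1, Cdh5, Cldn5, Egfl7 and Emcn together had been left out of both sums. Schwann markers summed to 13.7 CPM in the factor-positive cells and 30.2 CPM in the matched cells, melanocyte markers to 6.84 and 8.62, epithelial markers to 4.05 and 0.760, neuron markers to 12.9 and 11.9, and endothelial markers to 11.4 and 6.84 CPM. In the factor-positive cells, 3 of the 9 Schwann markers, 4 of the 7 melanocyte markers, 6 of the 9 epithelial markers, 4 of the 7 neuron markers and 1 of the 8 endothelial markers had no UMI. At most 1 marker of each of these lists reached the 20 UMIs that the 2-fold rule needs. Below that number, Krt15 (epithelial) had 10 UMIs against 0, Stmn2 (neuron) 12 against 0 and Kdr (endothelial) 13 against 0, and their part in the other differences was not tested. Contractile genes summed to 5061 and 7924 CPM, with Acta2 at 3086 and 4497 CPM and Myh11 at 41.3 and 123 CPM. Contractile transcripts were thus counted in the factor-positive cells, at a lower level than in the matched cells. More of the matched cells had at least 5 Myh11 UMIs, as given above. Free RNA was read for the members only, so its part in these counts was not tested. Genes of modulated smooth muscle were lower too, at a sum of 5417 and 8674 CPM, with 0 of 9 higher and 3 lower by the 2-fold rule. Skeletal muscle markers summed to 6.84 and 17.7 CPM, chondrocyte genes to 236 and 190, and osteoblast genes to 776 and 816 CPM. Of 8 chondrocyte genes with at least 20 UMIs, 2 were higher and 2 lower by the 2-fold rule. Of all other genes, 2.45% were higher and 3.86% lower. Macrophage markers summed to 7.60 and 114 CPM, the greater part from Lyz2, at 1.52 and 96.1 CPM. Over all kept cells of replicate 2 these markers summed to 22.7 CPM, so the matched cells were high in them. Their part in the other differences was not tested. The genes of the cell cycle summed to 2008 and 2139 CPM, and Xist was at 458 and 438 CPM.

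Beyond the lists, genes were ranked by the size of the difference among those with at least 100 UMIs over both sums. A gene that reaches 100 UMIs only through the sum where it is high has to differ, so the ranking supports nothing by itself. Dlx6os1 led, with 141 UMIs against 0 (at least 47.0-fold higher). As described above, it shares its locus with Dlx6, a member that helps to define the factor-positive cells. It was followed by the forkhead gene Foxq1 (42.8 and 1.01 CPM), Adamtsl1 (78.0 and 2.53), Megf10 (29.4 and 1.77), the chemokine receptor gene Ackr3 (26.4 and 2.03), the hedgehog binding protein gene Hhip (24.1 and 2.03), Gxylt2 (397 and 54.8) and Mest (30.1 and 5.07 CPM). The BMP antagonist gene Grem1 was at 685 and 138 CPM. The lowest relative to the matched cells were Lyz2, Mylk4 (1.77 and 44.6 CPM), Hoxa7, Ndnf (2.53 and 53.2), Rbp4 (3.80 and 30.9), Tnfsf15 (5.07 and 36.5), and the small leucine-rich proteoglycan genes Dcn (62.3 and 433) and Lum (13.2 and 86.7 CPM). For Lyz2 the matched cells were high against the library, as given above. All these genes were named after their values had been seen.

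Genes were also ranked by how their level over cells went with the number of members detected, taking the smaller Pearson r of the libraries among 12477 genes found in at least 1% of the cells of each. The leading 8 were Aldh1a2, Nav1, Fbn1, Fstl1, Sh3kbp1, Ptgs1, Cd34 and Prrc2c, with a smaller r of 0.08 to 0.10, which in sparse counts is no finding. In replicate 2 alone, over 6824 cells, Adamtsl1 (r = 0.37), Gxylt2 (0.35), Dlx6os1 (0.30), Foxq1 (0.29) and Sema3c (0.28) led, and their r in replicate 1 ran from -0.00436 to 0.0620. The number of members detected was not corrected for the UMI count of a cell, and the cells of a library share its free RNA. These values are therefore a description.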

How the data were processed

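Single-cell 3′ libraries (10x Genomics, v3 chemistry) of cultured aortic VSMCs were used, both of 1 group. The authors deposited UMI counts per gene and barcode as whole numbers, without normalization and for all barcodes. The submitters' processing notes name Cell Ranger 3.0.2 and mm10, and the matrix headers name Cell Ranger 3.0.2 for replicate 1 and 3.1.0 for replicate 2. Whether this changed the counts cannot be told apart from the other differences between the libraries.

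The 10 members and all gene lists were chosen with earlier results of these data known. Cells were kept and grouped as given above, endothelial cells from at least 5 UMIs of endothelial markers, and doublets were kept. Expected cell numbers came from the shares of each gene within 10 depth bins per library. UMI sums per library and class were tested with edgeR 4.0.16 in R 4.3.3 (TMM, filterByExpr, quasi-likelihood test, Benjamini-Hochberg adjustment over all genes tested), with DESeq2 1.42.0 as an alternative. Members were removed from the factor-positive fit. The sums of a library come from the same culture and so are paired by library number, and their deviations from the class means correlated with r of 0.582, 0.531 and 0.817 across 13915 genes. The libraries are the replicates, so n = 2 where both were used. Values of replicate 2 alone, such as those of the factor-positive cells, have no replicate. The scripts were tested on simulated data. All members were named, and of each list all called genes where 5 or fewer were called and otherwise the 4 with the largest difference. Other genes were named after their values had been seen. Sequences and motifs came from RefSeq, GRCm38.p6.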

Additional observations from a re-analysis of the deposited data

How the results depend on the processing

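The lists and the levels rest on 2 libraries that differ in most members, on low counts, and on an untested split of the Hox genes. Leaving out a library leaves 1 sum per class and no test.

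With each cell thinned to 3000 UMIs, the share of cells with any member fell from 18.7% to 4.45% (mean of the libraries). That with at least 3 members was 2.27% and became 0.0715% in replicate 2, and 0.0411% became 9.97e-05% in replicate 1. With at least 2 UMIs of each gene, the co-occurrence ratio was 6.77 in place of 3.09 in replicate 2, and 6.37 in place of 2.79 over both. The genes called between the Myh11 classes numbered 201 of 13915, and 3227 with the replicate block. DESeq2 called 1302 of 20774, and edgeR without a filter on low counts 495 of 20774. Between cycling classes 629 of 13915 were called, 2822 with the block and 1110 of 20774 with DESeq2. The factor-positive test called 52 of 15537 genes without a filter and 3 of 13920 without matching on UMI count. Both rest on 2 factor-positive cells in replicate 1. With at least 4 members it called 7 of 7693, on 1 such cell in replicate 1. An alternative added after seeing the data, with at least 2 members and the block, called 10 of 11220. The Hox ratio of 0.158 was 0.309 with at least 2 members, and 0.148 to 0.188 under the other alternatives. The causes of these shifts were not tested. With the replicate block, Pax9 was among the genes called, and no other member changed its call. Nothing is read from the calls of members, whose levels in these classes entered their choice.

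Uncalled values near 0 changed sign. Mab21l1, at 0.06 between the Myh11 classes, was at -0.00585 with the block, -0.17 without the 5% of cells with the most UMIs, -0.20 with Myh11 per depth and -0.12 with cycling from 20 UMIs per 10000. Between cycling classes, cutoffs of 5 and 20 per 10000 gave Dlx5 -0.0299 and -0.11, Dlx6 -0.0694 and -0.12, Mab21l1 0.0456 and 0.0395, and Msx1 0.0440 and 0.0620, and the block gave Mab21l1 0.0254. Between the non-cycling Myh11 classes of replicate 2 alone, Pax9 was at -1.82 and Tfap2b at -0.72, and Lhx8 had 1 UMI in the Myh11 cells. In replicate 1 alone Lhx8 was at -0.15, Pax9 had 1 UMI in the Myh11 cells, and Tfap2b had 3 UMIs there and 0 in the cells without Myh11.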

Other observations

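Cells with at least 2 members differed between the libraries in their Hox genes, which was not tested. In replicate 1, 54 non-endothelial cells had UMIs of at least 2 members, 45 of them with 0 or 1 Myh11 UMI and 24 of them cycling, against 19 cycling cells among their matches. Their Hox groups 5 to 13 were at 370 CPM and those of the matched cells at 286 CPM, and groups 1 to 4 at 143 and 93.6 CPM. In replicate 2, the 384 such cells had groups 5 to 13 at 42.3 CPM against 137 CPM, and 335 of them had 0 or 1 Myh11 UMI. The endothelial cells, which held Msx1 at the higher level given above, had groups 5 to 13 at 330 CPM in replicate 1 and 255 CPM in replicate 2, and groups 1 to 4 at 72.5 and 106 CPM. In replicate 2 the endothelial cells thus had a higher sum of groups 5 to 13 than the other cells (129 CPM).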
